A study of Mus musculus with 24 samples.

Results

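Growth signalling through mTORC1 is held back by a small set of inhibitory proteins, and shortage of amino acids or unfolded protein in the endoplasmic reticulum switches on a separate program led by the transcription factor ATF4. The measurements below concern 10 genes of these arms in mouse *M. gastrocnemius*, a mixed calf muscle. They are the mTOR brakes *Ddit4*, *Ddit4l*, *Sesn1*, *Sesn2*, *Sesn3* and *Deptor* (also called *Depdc6*) and the ATF4 stress genes *Atf4*, *Ddit3*, *Trib3* and *Asns*. Every non-control probe carrying the name of one of these genes was taken, which gave 12 probes of 55681 on the array and 10 of 34797 gene names. *Atf4* and *Deptor* had a pair of probes each and the other genes a single probe.

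The mice were male C57BL/6JOlaHsd that arrived at 10 weeks of age, ate a low-fat diet (10% of energy from fat) for 3 weeks and then a high-fat diet (40% of energy) for 6 weeks. In the fasted state, all were kept for 6 h in air with 20.9% oxygen (Norm, 12 mice) or 12% oxygen (Hypox, 12 mice), so that fasting and high-fat feeding are common to both groups. On each of the 24 arrays, the RNA of 1 mouse was labelled with Cy5 and compared with a Cy3 pool made from all samples. All values below are log2 ratios of Cy5 over Cy3, so that a difference of 1 is a doubling, and levels of different genes cannot be compared. A difference is always Hypox minus Norm (the log2 fold change), given with its standard error (SE). In whole muscle, fewer cells of a type and less RNA per cell cannot be told apart.

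The arrays lay on 6 slides with 2 Norm and 2 Hypox arrays each, numbered here from the dimmest (1) to the brightest (6). The mean Cy5 signal of an array ranged from 58.3 to 1014, and between 9.42% and 37.8% of its spots were well above background. All 8 skeletal muscle markers (*Acta1*, *Ckm*, *Myh4*, *Myh1*, *Mylpf*, *Tnnt3*, *Tnni2* and *Pygm*) were well above background on 24 of 24 arrays. Of 4 lung markers, *Sftpc* passed the filter on dim probes, with log2 ratios of -2.04 to -0.16 (Norm) and -1.39 to 2.57 (Hypox). It was higher in Hypox by 0.81 without adjustment (p = 0.0157), well above background on 4 of 24 arrays, and *Sftpa1*, *Sftpb* and *Scgb1a1* lay under it. Of 6 adipocyte markers, 4 passed it and 2 of these were lower in Hypox without adjustment, with a mean log2 ratio over the 4 of -0.78 to 0.90 (Norm) and -0.92 to -0.15 (Hypox), and *Lep* was well above background on 0 arrays. The part of these other cell types in the results was not tested.

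DDIT4, also named REDD1, releases the TSC complex to shut down mTORC1 and is a known target of hypoxia-inducible factor (HIF) and of glucocorticoids. DDIT4L (REDD2) is its paralog. The sestrins inhibit mTORC1 by binding GATOR2, and DEPTOR binds mTOR itself. ATF4 is made mainly by changed translation of an mRNA that is already there, when eIF2α is phosphorylated, and a transcript array does not see that step. ATF4 then raises transcription of *Ddit3* (the factor CHOP), of *Trib3* (a pseudokinase that binds AKT) and of *Asns* (asparagine synthetase), usually through a C/EBP-ATF composite element.

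Promoters of 9 of the 10 genes were found in the RefSeq table (GRCm38.p6), as 250 bases before and 50 after the start, with 2 starts for *Sesn1*. The composite element was searched as TGATGNAA on both strands and lay in 2 of these 10 promoters, those of *Asns* and *Trib3*, and in 3.97% of all 32851 promoters. The HIF core ACGTG lay in the promoters of *Ddit4*, *Ddit3* and *Asns* and in 19.6% of all promoters, and its other form GCGTG in 7 of the 10 promoters and in 32.4% of all. All elements were searched on both strands, where matches of both forms can overlap. The FOXO element GTAAACA was found in that of *Sesn1* (3.65% of all). Such matches describe letters and not bound sites. The 250 bases before the start are shown for *Asns* and *Ddit4*, which hold the classic elements of the ATF4 and HIF pathways, and 30 bases after the start for *Trib3*. The capitals mark the composite element and the HIF cores in *Asns*, the HIF cores in *Ddit4* and the composite element, read on the reverse strand, in *Trib3*. On GRCm38.p6 the windows lie at chr6:7693210-7693459, chr10:59951771-59952020 and chr2:152344027-152344056, all on the minus strand.
Asns: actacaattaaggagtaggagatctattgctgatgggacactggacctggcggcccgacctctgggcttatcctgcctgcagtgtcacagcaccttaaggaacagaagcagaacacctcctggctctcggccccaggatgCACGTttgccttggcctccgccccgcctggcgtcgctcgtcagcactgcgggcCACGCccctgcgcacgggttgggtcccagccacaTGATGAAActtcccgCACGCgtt
Ddit4: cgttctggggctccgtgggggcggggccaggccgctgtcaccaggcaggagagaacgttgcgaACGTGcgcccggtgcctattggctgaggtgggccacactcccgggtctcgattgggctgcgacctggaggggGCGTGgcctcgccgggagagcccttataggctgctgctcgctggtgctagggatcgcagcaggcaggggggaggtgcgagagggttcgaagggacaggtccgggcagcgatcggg
Trib3: tagctcaggtTTACATCAgccgggcgggga

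Hypox and Norm were compared by limma's moderated test over the 14312 probes whose Cy5 signal averaged over 2 times the background, with Benjamini-Hochberg adjustment over all of them. Of the 12 probes, 9 passed this filter and were tested, which covers 8 of the 10 genes. The probes of *Sesn3* (1.89 times the background), *Asns* (1.81 times) and the dimmer *Deptor* probe (1.57 times) lay under it and are given from the fit without the filter. After adjustment, 0 of the 9 probes passed 0.05, beside 0.999% of all probes (143, of which 35 higher and 108 lower). At an unadjusted 0.05, the study's threshold, 3 of the 9 passed, beside 14.1% of all probes (2011). They were *Ddit4* and *Trib3*, higher in Hypox (7.48% of all probes), and the brighter *Atf4* probe, lower in Hypox (6.57% of all). No probe past the filter had groups that did not overlap. The median log2 fold change of all probes was 0.023.

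**Figure D1:**
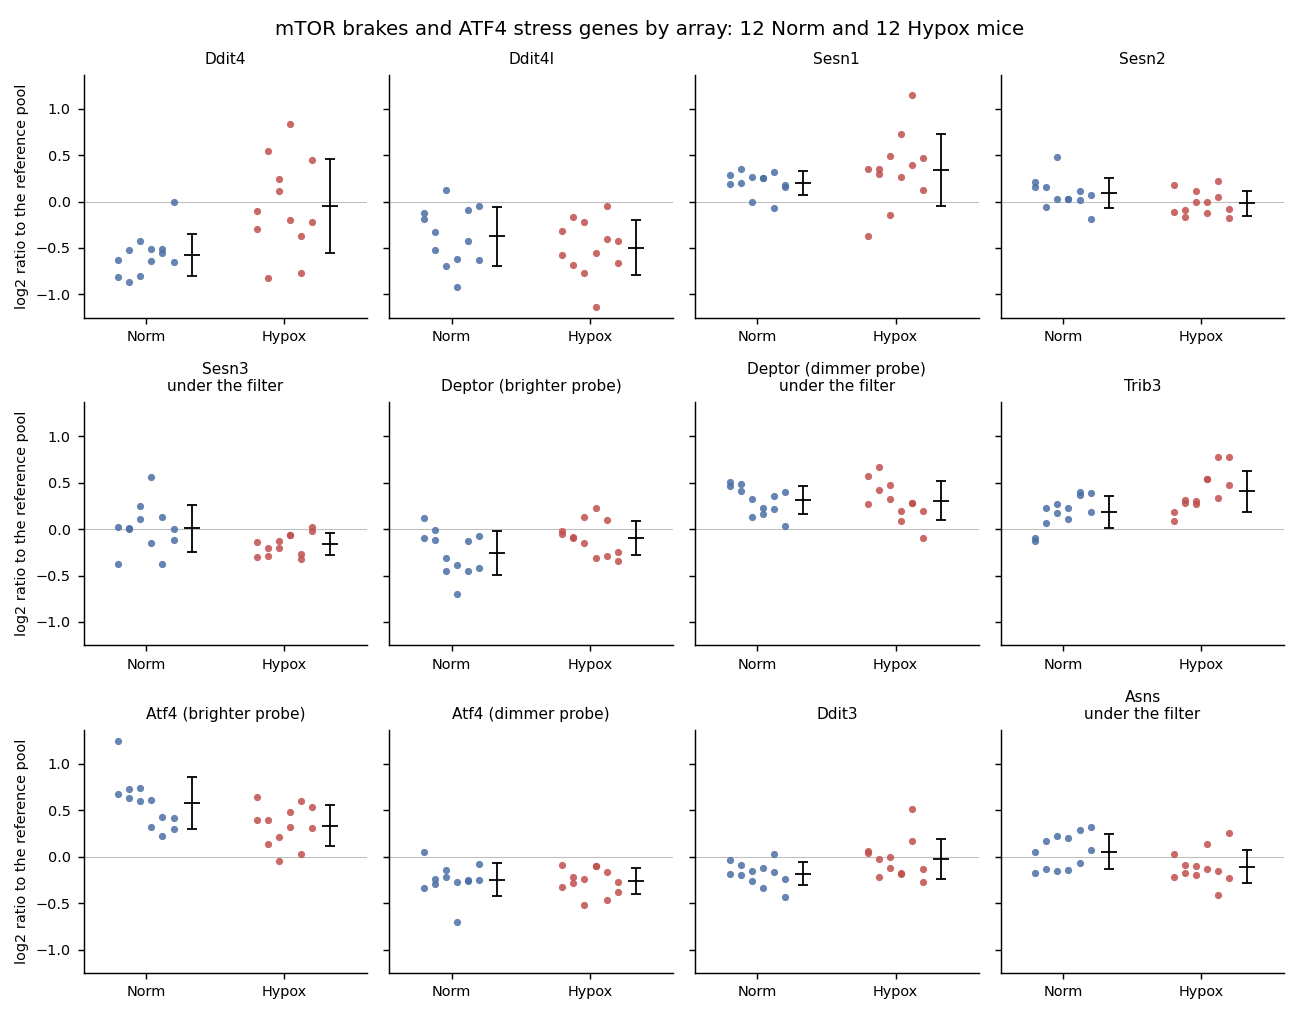
Log2 ratio to the reference pool (vertical axis) of the 12 probes in 12 Norm (blue) and 12 Hypox (red) arrays, 1 point per mouse, ordered from left to right within a group by slide, with mean and SD as bars. The Hypox points of *Ddit4* spread from -0.83 to 0.83, while 11 of the 12 Norm points lie under -0.4, and the groups overlap for every probe.

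*Ddit4* was the member with the largest difference. Its probe (chromosome 10, 59412486 to 59412545, mm9) read 20.3 times the background. The log2 ratio spanned -0.87 to 0.00035 among Norm mice (median -0.60) and -0.83 to 0.83 among Hypox mice (median -0.15). The 5 Hypox mice above every Norm mouse were replicates 1, 8, 9, 10 and 11. All other Hypox mice lay within the Norm range, the lowest being replicates 2 and 6 at -0.76 and -0.83. The highest Norm mouse was replicate 12. The means were -0.58 ± 0.23 (Norm) and -0.050 ± 0.51 (Hypox, SD, n = 12 each). The difference was thus 0.53 (SE 0.15, 95% confidence interval 0.22 to 0.83), or 1.44-fold in the ratio. Its limma p of 0.00154 became 0.0875 after adjustment. It ranked 28 among all probes by log2 fold change and 251 by P-value. The difference was positive on 5 of 6 slides, up to 0.89 on slide 4, and -0.032 on slide 5, which carried Hypox replicate 2. Leaving out any 1 array kept it between 0.45 and 0.60. The adjusted test passed without Norm replicate 12 (adjusted p = 0.0402), Hypox replicate 2 (0.0364) or Hypox replicate 6 (0.0428), and with none of the other alternatives, where the adjusted p reached 0.811.

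The Hypox values of *Ddit4* had an SD 2.22 times that of Norm (2-sided permutation test, p = 0.0253), and those of *Sesn1* 3.09 times (p = 0.0532). These were the largest of 8 ratios, a test chosen after the values were seen, and neither passed after adjustment over the 8 (adjusted p = 0.202 and 0.213). With the slide means removed the ratios were 1.81 for both.

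*Ddit4l*, the paralog, was read on chromosome 3 (137290927 to 137290986) at 15.3 times the background. Its log2 ratio spanned -0.93 to 0.12 among Norm mice (median -0.38) and -1.13 to -0.053 among Hypox mice (median -0.49). Replicate 8 of Hypox, the highest for *Ddit4*, lay below every Norm mouse and the groups otherwise overlapped. Hypox minus Norm was -0.12 (SE 0.12, 95% confidence interval -0.37 to 0.12, p = 0.317) and negative on 5 of 6 slides. Within an array, *Ddit4* minus *Ddit4l* averaged -0.20 ± 0.39 among Norm mice and 0.45 ± 0.76 among Hypox mice (SD, n = 12 each). Hypox minus Norm of this value was 0.65 (2-sided permutation test, p = 0.0138, adjusted p = 0.0206 over 3 probe pairs). The pairs were chosen after their values were seen, so these P-values do not decide whether the paralogs differ. Permuting within slides gave p = 0.0110, and without the dimmest slide the difference was 0.62 (p = 0.0471).

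Of the sestrins, *Sesn1* (chromosome 10, 41628012 to 41628071) read 7.90 times the background. It spanned -0.073 to 0.35 among Norm mice (median 0.23) and -0.37 to 1.14 among Hypox mice (median 0.35). In Hypox, 6 mice lay above every Norm mouse and 2 below every Norm mouse. Its difference was 0.14 (SE 0.11, 95% confidence interval -0.090 to 0.37, p = 0.221), positive on 5 of 6 slides, from -0.25 on slide 1 to 0.65 on slide 5. Without Hypox replicate 2, the highest mouse, it was 0.068 (p = 0.476), and without slide 1 it was 0.22 (p = 0.0643).

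*Sesn2*, which is itself an ATF4 target, was read at 3.59 times the background (chromosome 4, 132048858 to 132048917). It spanned -0.18 to 0.48 among Norm mice (median 0.053) and -0.18 to 0.22 among Hypox mice (median -0.045), and all Hypox values lay below the highest Norm value. Hypox minus Norm was -0.11 (SE 0.068, 95% confidence interval -0.25 to 0.034, p = 0.133), negative on 5 of 6 slides. The *Sesn3* probe (chromosome 9, 14130452 to 14130511) was well above background on 7 Norm and 4 Hypox arrays. It spanned -0.38 to 0.56 among Norm mice (median 0.011) and -0.32 to 0.027 among Hypox mice (median -0.17), so that every Hypox mouse lay within the Norm range. The difference was -0.17 (SE 0.078, limma p = 0.0387, or 0.589 after adjustment). The probe passed the study's threshold in 19 of 34 alternatives, and 14 of those 19 were fits without 1 array. It did not with the deposited values (-0.28, p = 0.0755), some other settings or 10 of 24 fits without 1 array. Alternatives other than those 24 fits gave between -0.46 and -0.071.

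The brighter *Deptor* probe (chromosome 15, 55083753 to 55083812) read 5.89 times the background. It spanned -0.70 to 0.12 among Norm mice (median -0.22) and -0.34 to 0.23 among Hypox mice (median -0.091). In Hypox 2 mice lay above every Norm mouse. The difference was 0.16 (SE 0.088, 95% confidence interval -0.023 to 0.34, p = 0.0837), and 3 of 6 slides lay on each side, from -0.051 to 0.51. Without slide 1 it was 0.20 (p = 0.0480), and with the slide as a block as well p was 0.0569. The dimmer probe (chromosome 15, 55051739 to 55051798), designed on a cDNA clone, was well above background on 1 of 24 arrays. It gave -0.0038 (SE 0.073, p = 0.958). Brighter minus dimmer rose by 0.16 from Norm to Hypox (2-sided permutation test, p = 0.101, adjusted p = 0.101 over the same 3 pairs). This value says little, because the dimmer probe was rarely above background.

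*Atf4* gave different values at its 2 probes. The brighter (chromosome 15, 80087902 to 80087961) lies near the end of the transcript, holds the polyadenylation signal AATAAA and read 218.6 times the background. The dimmer (chromosome 15, 80086639 to 80086698) lies upstream of it and read 3.60 times. The last 30 bases of each are shown, at chr15:80087932-80087961 and chr15:80086669-80086698 (mm9, plus strand), with the AATAAA in capitals.
Atf4 brighter probe: tgctgtgtttgctgtAATAAAttattttgt
Atf4 dimmer probe: taacggacaaagataccttcgagttaagca

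The brighter *Atf4* probe spanned 0.22 to 1.25 among Norm mice (median 0.61) and -0.047 to 0.64 among Hypox mice (median 0.36). In Hypox, 4 mice lay below every Norm mouse and the highest Norm mouse, replicate 4, was on slide 1. Hypox minus Norm came to -0.24 (SE 0.10, 95% confidence interval -0.45 to -0.037), with a limma p of 0.0225, or 0.263 after adjustment. The 3 dimmer slides gave -0.44, -0.42 and -0.59, whereas the 3 brighter slides gave -0.063, -0.0038 and 0.062. The part of slide signal in this result was not tested. The deposited values gave 0.12 (p = 0.725), the Cy5 channel alone -0.17 (p = 0.106) and the slide block without slide 1 -0.20 (p = 0.0535).

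The dimmer *Atf4* probe spanned -0.70 to 0.046 among Norm mice (median -0.25) and -0.52 to -0.093 among Hypox mice (median -0.26), and its difference was -0.014 (SE 0.072, 95% confidence interval -0.16 to 0.13, p = 0.847). Brighter minus dimmer fell by 0.23 from Norm to Hypox (2-sided permutation test, p = 0.0137, adjusted p = 0.0206 over the same 3 pairs). It was negative on 4 of 6 slides, from -0.45 to 0.23. The dimmer probe was well above background on 8 Norm and 9 Hypox arrays, and all other arrays lay on slides 1 and 2. The part of the background in this value was not tested. The pairs were chosen after their values were seen, so these P-values do not decide whether the 2 probes differ. The mean of both probes gave -0.13 (p = 0.108).

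*Trib3* (chromosome 2, 152163161 to 152163220) read 3.18 times the background. It spanned -0.12 to 0.40 among Norm mice (median 0.21) and 0.083 to 0.78 among Hypox mice (median 0.33), and 5 Hypox mice lay above every Norm mouse. The difference was 0.23 (SE 0.084, 95% confidence interval 0.054 to 0.40), with a limma p of 0.0119, or 0.209 after adjustment, and was positive on 6 of 6 slides, from 0.070 to 0.37. All 24 fits without 1 array passed the unadjusted threshold, with 0.19 to 0.26. Median centring (0.35, p = 0.0828), the Cy5 channel alone (0.15, p = 0.169) and the scanner's processed signals (0.43, p = 0.211) left it short of the threshold. The probe was well above background on 9 of 12 arrays of each group.

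*Ddit3* (chromosome 10, 126732518 to 126732821, across a splice junction) read 2.02 times the background, just past the filter. It was well above background on 6 Norm and 7 Hypox arrays. It spanned -0.43 to 0.032 among Norm mice (median -0.18) and -0.27 to 0.52 among Hypox mice (median -0.074), with 4 Hypox mice above every Norm mouse. Its difference was 0.15 (SE 0.077, 95% confidence interval -0.0041 to 0.31, p = 0.0558), positive on 6 of 6 slides, from 0.023 to 0.41. With the slide as a block, p was 0.0256. Without Hypox replicate 2, the highest mouse, it was 0.10 (p = 0.115), and on the deposited values it was -0.042 (p = 0.781).

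*Asns* (chromosome 6, 7625171 to 7625228) spanned -0.18 to 0.32 among Norm mice (median 0.066) and -0.41 to 0.26 among Hypox mice (median -0.15), where 4 mice lay below every Norm mouse. Hypox minus Norm was -0.16 (SE 0.072, limma p = 0.0338, or 0.571 after adjustment), negative on 6 of 6 slides, from -0.39 to -0.027. Its probe was well above background on 5 Norm and 3 Hypox arrays. The probe passed the study's threshold in 19 of 34 alternatives, and 15 of those 19 were fits without 1 array. It did not with the deposited values (-0.26, p = 0.142), some other settings or 9 of the 24 fits without 1 array. Alternatives other than those 24 fits gave between -0.48 and -0.038. *Trib3* and *Asns*, both with a composite element shown above, lay on opposite sides of 0, with *Asns* under the filter. This contrast was not tested.

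**Figure D2:**
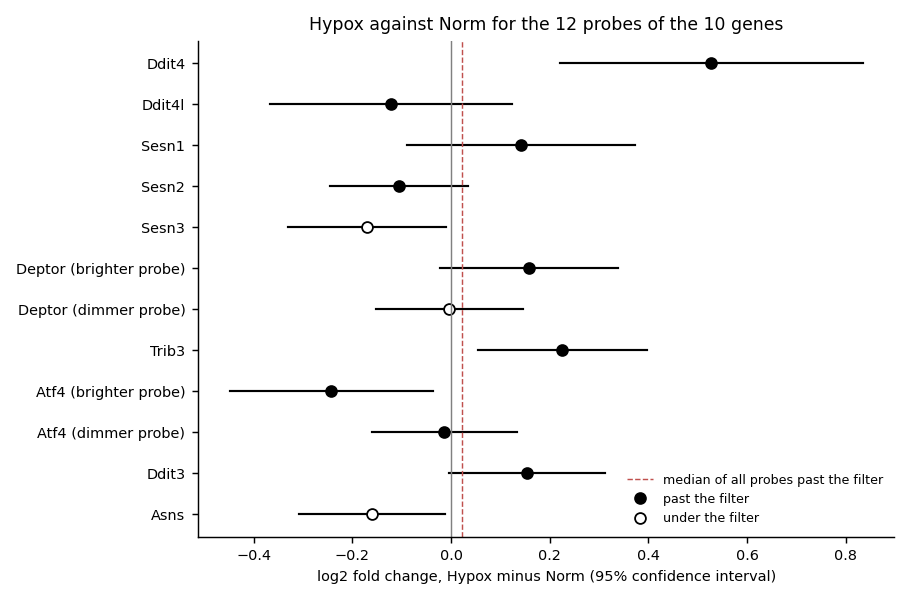
Log2 fold change (Hypox minus Norm, horizontal axis) with its 95% confidence interval for the 12 probes, with filled points past the filter and open points under it, and the median of all probes as a dashed line at 0.023. Past the filter, the intervals of *Ddit4*, *Trib3* and the brighter *Atf4* probe leave out 0, the last on the lower side.

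**Figure D3:**
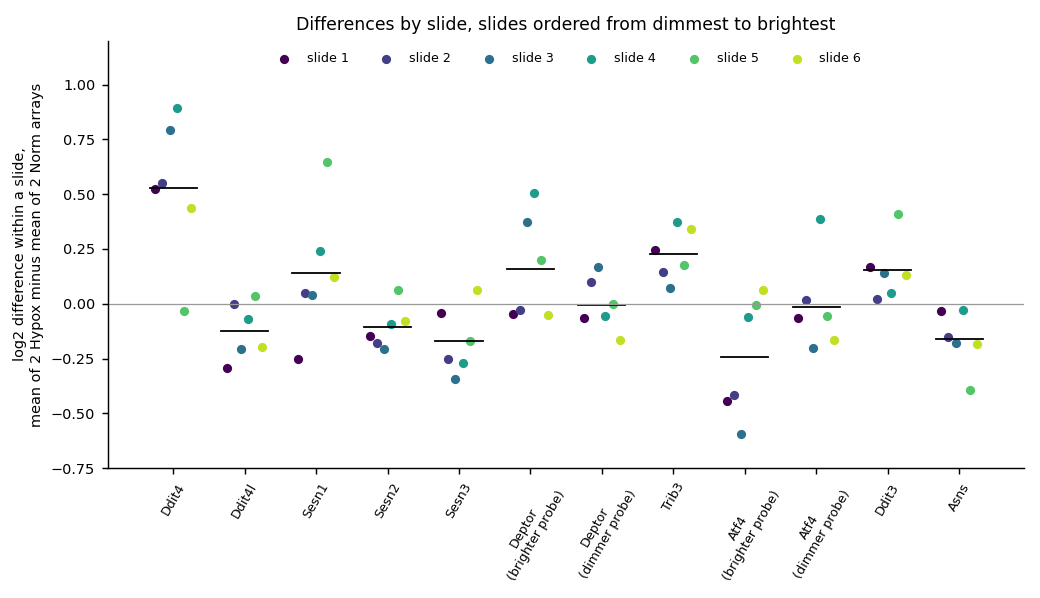
Difference between the mean of 2 Hypox and 2 Norm arrays on each of 6 slides (vertical axis, log2), coloured from the dimmest to the brightest slide, with the log2 fold change as a line. *Trib3* and *Ddit3* lie above 0 and *Asns* below 0 on every slide, and the negative values of the brighter *Atf4* probe below -0.4 are those of slides 1 to 3.

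The members were also compared with each other among mice of a group. With group means removed, 15 of 28 pairs of the 8 genes past the filter correlated positively over the 24 arrays, 4 pairs had an unadjusted p under 0.05 and 0 passed after adjustment over the 28, by permutation within groups. *Ddit4* and *Ddit3* gave the smallest p, with Pearson r = -0.61 (p = 0.0047, adjusted p = 0.0909) and Spearman rho = -0.46 (p = 0.0317, adjusted p = 0.268). Without the 2 arrays farthest from the median of *Ddit4* r was -0.69, and with slide means removed it was -0.52. The r was -0.36 in Norm and -0.68 in Hypox. The *Ddit3* values in this pair come from a probe near the background.

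*Ddit4l* and *Sesn2* gave r = 0.55 (p = 0.0065, adjusted p = 0.0909) and rho = 0.43 (p = 0.0383, adjusted p = 0.268), with r = 0.56 without the 2 farthest arrays. *Ddit4* and *Ddit4l* gave r = -0.50 (p = 0.0121, adjusted p = 0.113) and rho = -0.43 (p = 0.0349, adjusted p = 0.268), with r = -0.28 without the 2 farthest arrays. That relation was at r = -0.79 in Hypox and 0.0062 in Norm (this contrast was not tested), and the pooled relation rests on those 2 arrays. *Ddit4l* and *Deptor* gave r = 0.50 (p = 0.0167, adjusted p = 0.117) and rho = 0.46 (p = 0.0293, adjusted p = 0.268), and r fell to 0.31 without the 2 farthest arrays, on which it rests. Hypox replicate 2 combined the second lowest Hypox *Ddit4* with the highest *Sesn1*, *Ddit3* and *Ddit4l* of its group.

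**Figure D4:**
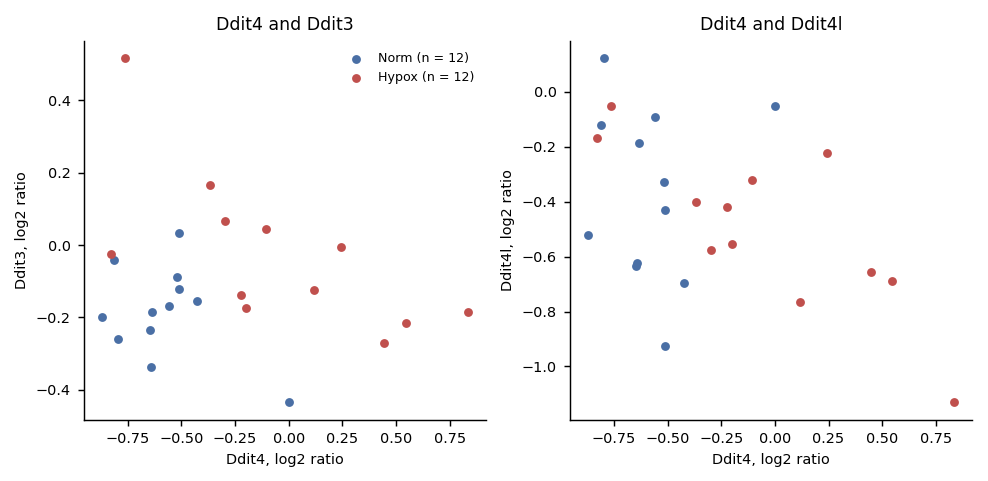
Log2 ratio of *Ddit3* (left) and *Ddit4l* (right) against that of *Ddit4* in 12 Norm (blue) and 12 Hypox (red) mice. Among the Hypox mice both are lower where *Ddit4* is higher, with r = -0.68 and -0.79, and the Norm mice lie mostly at low *Ddit4*.

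For each member, the gene names whose brightest probe followed it most closely were taken from 11519, by Pearson r over the 24 arrays after group and slide means were removed, as a description without a test. All genes share the arrays, their slides and the reference pool. *Ddit4* was followed by *1810011O10Rik* (0.83), *Fmo2* (0.82) and *Cebpd* (0.82), a C/EBP factor that is a known glucocorticoid target. *Sesn1* was followed by *BC099970* (0.90), *Tmem120a* (0.89) and *Eif4ebp1* (0.88), the mTORC1 substrate that blocks cap-dependent translation. *Ddit4l* was followed by *Sh2b1* (0.92), *Mybph* (0.88) and *Clip1* (0.88).

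*Atf4* was followed by *Ndufv3* (0.87), an unnamed probe (0.83) and *Ndufa13* (0.80), the named ones encoding complex I subunits. *Ddit3* was followed by *Ass1* (0.90), *Spg11* (0.89) and *Hus1* (0.89). *Deptor* was followed by *Sts* (0.87), *H2-T23* (0.86) and *Col5a3* (0.86), and *Sesn2* by *Atrip* (0.84), a transcript without a gene symbol (0.84) and *Tbccd1* (0.82). Among those closest to *Trib3* were *Rnaseh1* (0.73) and *Txndc16* (0.71), which were at -0.24 and 0.19 when slide means were kept. Of the others, *Atrip* (0.32), *Tbccd1* (0.31) and the unnamed probe beside *Atf4* (0.17) were also far lower with slide means kept, and the rest were between 0.56 and 0.91. *Depp1*, the transcript with the largest positive difference of all probes tested (0.95, listed as *8430408G22Rik*), correlated with the members at between -0.32 and 0.30.

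Around the members, 148 other genes of these pathways were looked up in 6 lists. Of those with a probe past the filter, 5 were higher and 3 lower in Hypox without adjustment, which is 7.48% of them beside 14.1% of all probes, and their median log2 fold change was 0.030 beside 0.023. After adjustment, 2 passed, both lower, beside 0.755% of all probes called lower.

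Among 33 inputs of mTORC1 tested, the median was 0.067. *Rragd*, a RAG GTPase that carries mTORC1 to the lysosome, averaged 0.23 ± 0.20 (Norm) and -0.21 ± 0.27 (Hypox, SD, n = 12 each) and fell by 0.45 (SE 0.097, limma adjusted p = 0.0258). Norm mice spanned -0.069 to 0.49 and Hypox mice -0.63 to 0.32, and 8 Hypox mice lay below every Norm mouse. It was lower on 6 of 6 slides, and the adjusted test passed in 23 of 24 fits without 1 array. Median centring gave -0.18 (p = 0.409) and the processed signals -1.03 (adjusted p = 0.0146). *Tbc1d7*, a part of the TSC complex that DDIT4 acts on, was at 0.24 (p = 0.0120, adjusted p = 0.210), and *Seh1l*, a GATOR2 subunit, at 0.22 (p = 0.00709, adjusted p = 0.173). Of 15 effectors of mTORC1, 0 passed at either threshold, with values from -0.16 to 0.28.

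Of 8 tested eIF2α kinases and feedback genes, *Ppp1r15a* (GADD34, which guides the removal of phosphate from eIF2α) passed without adjustment (0.17, p = 0.0414, adjusted p = 0.331). Of 7 ATF4 partners, 0 passed, and with the slide as a block 2 did, both C/EBP factors with higher values, *Cebpd* (0.41, p = 0.0366) and *Cebpb* (0.31, p = 0.0359), which are named after their values were seen. With that block, 2284 of all 14312 probes passed without adjustment, 1196 of them higher. The 32 tested targets of ATF4 outside the members had a median of 0.033. *Vldlr*, the VLDL receptor, averaged 0.14 ± 0.14 (Norm) and -0.22 ± 0.28 (Hypox, SD, n = 12 each) and fell by 0.36 (SE 0.091, limma adjusted p = 0.0494), with 9 Hypox mice below every Norm mouse and 6 of 6 slides lower. Its adjusted test passed in 7 of 24 fits without 1 array and reached 0.0938 in the others, and its deposited values gave -0.047 (p = 0.884). *Ddr2*, a collagen receptor, was at -0.26 (p = 0.00484, adjusted p = 0.151). *Ppp1r15a*, also listed here, was the only target with a higher value past the unadjusted threshold. Several classic amino acid genes of the program, such as *Psat1*, *Phgdh*, *Mthfd2* and *Slc7a11*, lay under the filter. Of 18 genes of the other arms of endoplasmic reticulum stress, *Manf* (0.23, p = 0.0171, adjusted p = 0.237) and *Dnajb11* (0.18, p = 0.0410, adjusted p = 0.330), both products of the endoplasmic reticulum lumen, passed without adjustment.

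**Figure D5:**
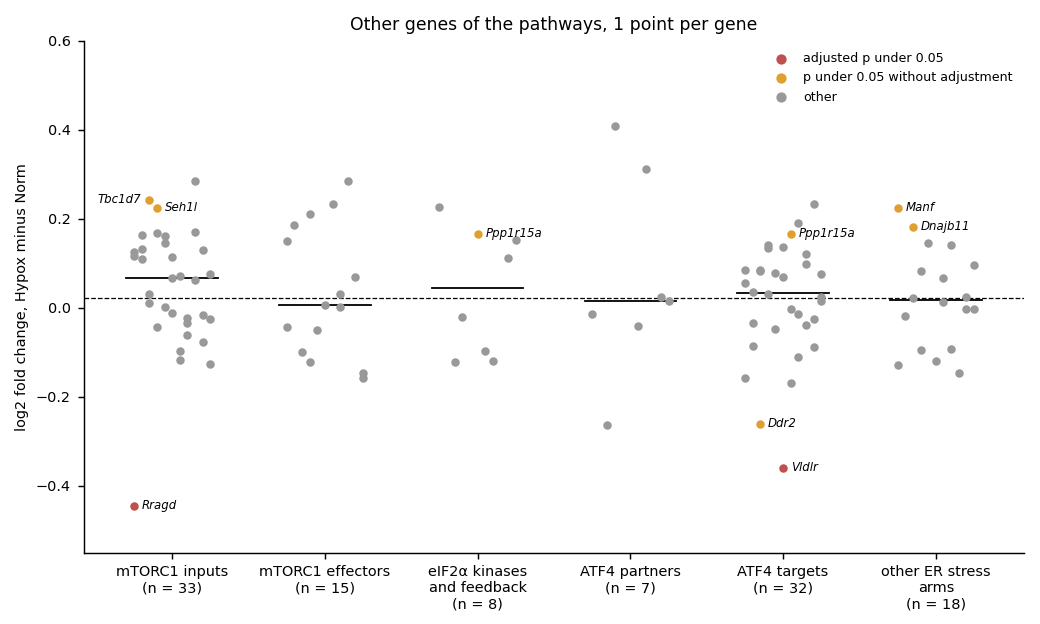
Log2 fold change (Hypox minus Norm, vertical axis) of the other genes of 6 pathway lists, 1 point per gene past the filter, with list medians as lines and the median of all probes dashed. *Rragd* at -0.45 and *Vldlr* at -0.36 (red) passed after adjustment, and the orange points passed without it only.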

How the data were processed

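Muscle RNA of 24 mice was measured on 2-colour arrays. Per the labels, the scanner output was made with Agilent Feature Extraction 10.7.3.1. The authors deposited each spot's intensity as scanned, not normalized across arrays. They also deposited log2 values normalized in GeneMaths XT. Every column of that table has a median of 6.58, and its scaling, its centring and how Cy3 entered it are not given in the sources used here, so it served as an alternative. Across arrays, its values correlated with log2 Cy5 at 0.967 to 0.999 and with log2 Cy3 at 0.892 to 0.992. They thus follow intensity, an unlike measure where they are set beside the ratios. The dye of each channel follows the descriptions of the samples, because some dye labels name other dyes. Probe positions are those of the scanner files (mm9), promoters are RefSeq's (GRCm38.p6), and these builds were not mixed.

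Control spots and 7260 flagged readings were left out. The signals were background-corrected with normexp (offset 50), normalized by loess within arrays and averaged per probe. Probes over 2 times the background with at most 4 arrays missing were kept. limma's moderated test compared 12 Hypox with 12 Norm arrays with no blocking term, and Benjamini-Hochberg adjustment covered the 14312 probes. A limma P-value sets the group difference against the spread between arrays. With 1 array per mouse and no blocking term, differences between mice, arrays and slides are mixed in that spread. Correlations, spreads and probe differences were tested with 100000 permutations. Pathway lists were written from general knowledge, and members and lists were chosen with earlier results of these data known. Named are all members, up to 3 list genes per direction past the unadjusted threshold, list genes past adjustment, *Depp1*, muscle markers, markers near background and the 3 gene names most like each member (1 of them is not reported here), and *Sftpc* was named after its values were seen. The probe differences, the spread test and the fits without slide 1 were chosen after the values were seen. The limma fit, the correlations and the probe differences were tested on simulated data. Software was limma 3.58.1 in R 4.3.3, and, in Python 3.11.15, matplotlib 3.10.9, pandas 2.3.3 and numpy 2.4.6. Precision is limited by the number of arrays.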

Additional observations from a re-analysis of the deposited data

How the results depend on the processing

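Settings are compared by log2 fold change and by the unadjusted threshold. Under alternatives, 354 values of the 12 probes kept their direction and side of the threshold. Of the rest, 38 no longer passed it, 13 came to pass it and 29 changed sign. Most were fits without 1 array or refits of the same ratios, so the 354 do not measure robustness. The 3 member probes past the unadjusted threshold became 6 without the filter on dim probes, 1 with the Cy5 channel alone and 0 with median centring, and between 3 and 5 with each array left out. Over all probes, the 143 calls after adjustment became 45 without the filter, 251 with the processed signals and 76 with Cy5 alone. They became 0 with median centring, 89 with the methods' t-test, and on the deposited values 1 with limma and 0 with that t-test. They lay between 51 (without Hypox replicate 7) and 238 (without Norm replicate 12) with each array left out. The 2011 calls without adjustment became 4487 without the filter, 1336 with Cy5 alone, 58 with median centring, and 974 with limma and 1042 with the methods' t-test on the deposited values, and 1720 to 2272 with each array left out. Totals were 55681 probes without the filter, 19360 on the deposited values and 14312 for the other counts here. Counts with unlike totals cannot be compared. Of the unadjusted calls 53.3% were higher, and 43.1% on the deposited values with limma, 40.9% with the t-test and 96.6% with median centring, which moved the median of all probes to 0.24. The cause of these changes was not tested.

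Changed signs came with median centring for *Ddit4l* (0.21), *Sesn2* (0.078), the dimmer *Deptor* probe (0.047) and the dimmer *Atf4* probe (0.15), all below the median of all probes there, and for the brighter *Atf4* probe (0.33), above it. The deposited values turned *Ddit4l* (0.044), the brighter *Atf4* probe (0.12) and *Ddit3* (-0.042) with either test. The processed signals turned *Sesn1* (-0.058), the dimmer *Deptor* probe (0.081) and the dimmer *Atf4* probe (0.095). Leaving out 1 array or slide 1 (0.0084, also with the slide block) turned the dimmer *Deptor* probe, from -0.037 to 0.033, and 1 array the dimmer *Atf4* probe, from -0.055 to 0.013. The spread ratios turned to above 1 for *Deptor* (1.09) and *Atf4* (1.06) with slide means removed and for *Atf4* (1.15) without slide 1. *Trib3* no longer passed with the processed signals (0.43, p = 0.211), median centring (0.35, p = 0.0828) or Cy5 alone (0.15, p = 0.169), nor *Ddit4* with median centring (0.81, p = 0.0989). *Vldlr* was at 0.11 (p = 0.840) and *Rragd* at -0.18 (p = 0.409) with median centring.

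The replicate numbers do not pair the arrays. Same-numbered arrays shared a slide in 1 of 12 cases, and their deviations from the group means correlated at between -0.22 and 0.53, over 0.1 in 3 of 12 pairs, and 1 of 12 Norm arrays correlated best with its own number. With the replicate block 125 probes passed after adjustment and 3 member probes without it. With the slide block, 10 list genes passed without adjustment in place of 8. Dim probes limit *Ddit3*, *Sesn3*, *Asns* and the dimmer *Deptor* probe, with Cy5 near 2 times the background.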
